A study of Mus musculus with 22 samples.

Results

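The genes described here are 10 genes that mark the luminal epithelial cells of the mammary gland, namely the keratins Krt7, Krt8, Krt18 and Krt19, the surface and junction proteins Epcam, Cdh1, Cldn3 and Cldn7, and the regulators Elf5 and Esrp1. Their rows were taken by symbol, and all 10 were found among the 52526 distinct gene symbols of the deposited tables. RNA was measured in 22 female C57BL/6J mice aged 7 to 8 weeks, in the left 4th mammary tissue, which held engrafted EO771 cells. EO771 is a mammary cancer line from this strain, here carrying firefly luciferase, and 100000 cells were injected per mouse. Mice had a running wheel (Wheel) or the hub shelter alone (Control) for 2 weeks before engraftment, and received either PBS liposomes or clodronate liposomes by vein 24 hours before engraftment and again at engraftment. Clodronate liposomes kill the phagocytes that take them up. The tissue was taken 24 hours after engraftment. There were 6 Control PBS, 6 Wheel PBS, 5 Control Clodronate and 5 Wheel Clodronate mice, and every group carried the same graft. Host gland, fat pad and graft were lysed together, so RNA from host epithelium and from EO771 cells cannot be told apart.

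The ducts of the mammary gland have an inner luminal layer that faces the lumen and an outer basal layer of contractile cells. Luminal cells carry keratin filaments built from a type II keratin (Krt7, Krt8) paired with a type I keratin (Krt18, Krt19), and they are sealed to each other by E-cadherin (Cdh1) and claudins. Several of these genes are not particular to the breast. Cdh1 and Esrp1, which encodes a splicing factor of epithelial cells, are also used by the stratified epidermis, whereas Krt8 and Krt18 belong to simple epithelia and are little used by interfollicular epidermis.

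Promoter letters are shown first. Several members rose and fell together from mouse to mouse, and any part of promoter letters in this was not tested. RefSeq sequences on GRCm38.p6 were matched for 7 of the 10 members, with 9 promoters in all, and the 250 bases before the start are given for Krt7, Krt18 and Cldn3, whose levels ran closely together, beside Krt8 and Epcam. Krt19, Cdh1 and Esrp1 had no entry. Sequences run 5′ to 3′ on the gene's strand. Krt7 lies at chr15:101412153-101412402 (plus strand), Krt18 at chr15:102027966-102028215 (plus), Cldn3 at chr5:134985964-134986213 (plus), Krt8 at chr15:102004343-102004592 (minus) and Epcam at chr17:87635729-87635978 (plus). Capitals mark 5 motifs searched on both strands, and touching capitals in Krt7 are an overlap of 2 motifs.
Krt7: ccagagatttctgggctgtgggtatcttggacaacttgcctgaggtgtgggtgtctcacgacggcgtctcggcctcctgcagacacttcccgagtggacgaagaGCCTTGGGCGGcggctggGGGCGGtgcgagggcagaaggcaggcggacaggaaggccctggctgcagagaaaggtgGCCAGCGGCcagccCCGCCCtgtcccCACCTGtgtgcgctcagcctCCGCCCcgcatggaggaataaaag
Krt18: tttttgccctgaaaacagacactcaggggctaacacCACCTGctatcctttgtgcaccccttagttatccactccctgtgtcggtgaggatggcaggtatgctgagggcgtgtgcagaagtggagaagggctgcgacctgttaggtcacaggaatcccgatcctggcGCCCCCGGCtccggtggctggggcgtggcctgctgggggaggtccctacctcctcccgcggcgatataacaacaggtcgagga
Cldn3: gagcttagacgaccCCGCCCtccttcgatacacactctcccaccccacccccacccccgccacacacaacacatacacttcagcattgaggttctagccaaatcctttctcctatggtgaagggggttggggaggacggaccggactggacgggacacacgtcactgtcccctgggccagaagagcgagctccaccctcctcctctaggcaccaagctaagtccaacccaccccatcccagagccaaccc
Krt8: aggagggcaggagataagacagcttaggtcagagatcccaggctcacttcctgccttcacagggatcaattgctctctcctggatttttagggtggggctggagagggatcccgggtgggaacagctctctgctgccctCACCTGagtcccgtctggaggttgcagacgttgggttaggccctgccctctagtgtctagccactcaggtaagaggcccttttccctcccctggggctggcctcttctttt
Epcam: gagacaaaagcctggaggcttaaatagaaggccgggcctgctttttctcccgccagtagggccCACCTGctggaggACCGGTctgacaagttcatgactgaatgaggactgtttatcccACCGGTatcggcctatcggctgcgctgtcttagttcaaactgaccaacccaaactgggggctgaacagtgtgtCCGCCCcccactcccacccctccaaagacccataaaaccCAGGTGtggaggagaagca

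The E-box CAGGTG, bound by Snail and ZEB repressors, was in 6 of the 9 member promoters and in 17.2% of 32851 promoters of the same length. The AP-2 motif GCCNNNGGC was in 2 of 9, those of Krt7 and Krt18, and in 13.7% of all promoters. The grainyhead core ACCGGT was in 1 of 9, that of Epcam, which holds 2 copies, and in 1.86% of all promoters. The GC box GGGCGG was in 4 of 9 against 32.7%, and TATAAA in 0 of 9 against 12.4%. The 9 member promoters had 51.2% (Cldn7) to 66.0% (Krt7) GC, against a median of 52.4% over all promoters. The part of base composition in these shares was not tested. These matches describe letters only, and binding was not measured. The genes themselves lie on several chromosomes, with the type I keratin Krt18 (chr15:102028180-102032027) on the same chromosome as the type II keratins Krt8 (chr15:101996698-102004482) and Krt7 (chr15:101411043-101430313). These spans are from GENCODE M21, whereas the promoter starts are those of RefSeq. By the GENCODE spans, the Krt7 stretch shown lies inside the gene, and those of Krt8 and Krt18 lie partly inside theirs.

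Values are CPM, the reads of a gene scaled to a common library size, with anything below 1 raised to 1. Read totals were worked out from the step between low CPM values, at 13256467 to 20484578 (median 16293026). By these totals the floor stands for at most 13 to 20 reads. The share assigned to genes, worked out from the rows that name no gene, was 57.4% to 64.65%. The totals behind CPM thus include unmapped and multimapping reads. The assigned share was 57.4% to 58.65% in Wheel Clodronate mice and 58.78% to 63.17% in Control Clodronate mice, without overlap. With PBS liposomes it was 58.47% to 63.89% in Wheel and 60.55% to 64.65% in Control mice. In each mouse 73.4% to 76.1% of symbols sat at the floor, and changes below it were not detectable. The pieces of tissue differed in what else they held. The summed CPM of 12 epidermis and hair follicle genes (the epidermal level) ran from 32.3 to 11892 between mice, and that of 10 skeletal muscle genes from 33.4 to 24767. The 12 lymphocyte genes summed to 248 to 733 CPM in 5 mice (Control PBS 2, Wheel PBS 3 and Wheel Clodronate 3, 4 and 5) and to 12.0 to 19.2 CPM in the other 17. The summed CPM of 10 adipocyte genes varied 2.45-fold. All 10 members were above the floor in at least 5 mice and entered the test. 9 of them were above it in all 22 mice, and Cldn7 was at the floor in 4.

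Krt18, the type I partner of Krt8, was at 36.2 CPM in the lowest Control PBS mouse, 103 at the median and 213 in the highest (n = 6), against 70.6, 118 and 131 in Wheel PBS mice (n = 6). In Control Clodronate mice it was at 206, 44.3, 34.9, 157 and 141 CPM, and in Wheel Clodronate mice at 161, 71.7, 84.1, 133 and 116 CPM. In bulk tissue, fewer luminal cells and less RNA per luminal cell cannot be told apart. The 4 groups overlapped, and the low values came from single mice, above all Control PBS 3 and Control Clodronate 2 and 3.

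Krt19, a type I keratin of ductal cells, was at 65.0 to 217 CPM in Control PBS mice (median 126) and at 149 to 218 CPM in Wheel PBS mice (median 179). Control Clodronate mice had 246, 65.7, 41.0, 199.9 and 205 CPM, and Wheel Clodronate mice 180, 76.3, 101, 218 and 176 CPM. The Wheel PBS mice all lay above the Control PBS median, and the ranges overlapped. The log2 change of Krt19 on the log2(CPM + 1) scale was 0.56 (SE 0.36, 95% interval -0.19 to 1.31), with an adjusted p of 0.987 by limma over all genes tested. An exact two-sided permutation of the 12 mice gave Krt19 an unadjusted p of 0.0498, the only one of 30 such tests of single members under 0.05, with an interval of the change that includes 0.

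Krt8 is the type II keratin of simple epithelia. Control PBS mice had 8.38 to 39.2 CPM (median 30.0) and Wheel PBS mice 23.2 to 51.8 CPM (median 26.5). Control Clodronate mice had 33.3, 16.6, 8.86, 28.6 and 33.4 CPM, and Wheel Clodronate mice 15.4, 15.4, 20.7, 33.3 and 33.2 CPM. Control PBS 3 and Control Clodronate 3 were again the lowest mice of their groups, and all groups overlapped. Krt7, the other type II keratin, ran from 15.6 to 81.7 CPM over the 22 mice, with group medians of 40.9 (Control PBS), 52.5 (Wheel PBS), 56.4 (Control Clodronate) and 46.1 CPM (Wheel Clodronate).

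**Figure D1:**
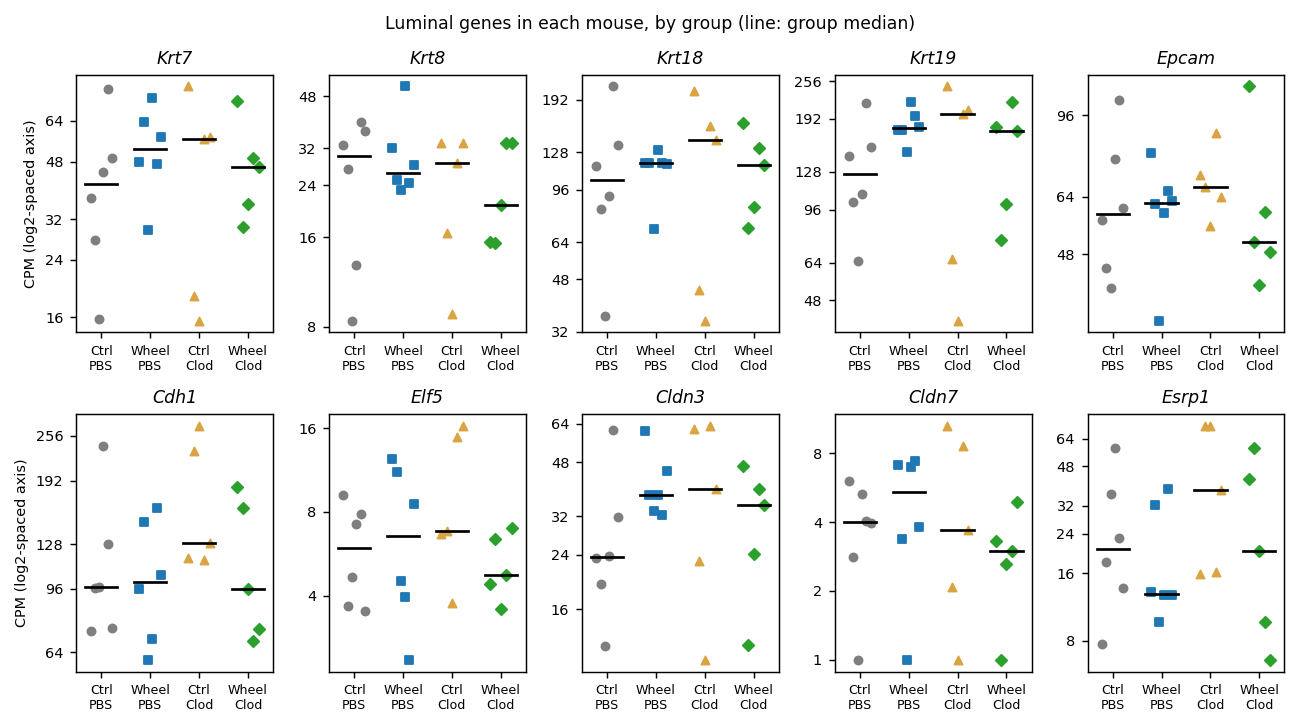
CPM of each luminal gene (y axis, log2-spaced) in every mouse, by group (x axis, 5 or 6 points each, black line at the group median, Ctrl for Control and Clod for Clodronate). The groups overlap for all 10 genes, and Esrp1 spreads from 6.55 to 73.1 CPM.

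Among the adhesion genes, E-cadherin (Cdh1) was at 73.6 to 240.2 CPM in Control PBS mice (median 97.1) and 60.9 to 161 CPM in Wheel PBS mice (median 101). Control Clodronate mice had 117, 232, 274, 116 and 129 CPM and Wheel Clodronate mice 185, 161, 96.1, 69.0 and 74.4 CPM. The highest Cdh1 of all was in Control Clodronate 3, the mouse with the lowest Krt7, Krt18, Krt19 and Cldn3. In Wheel Clodronate mice Cdh1, Krt7 and Krt18 were all highest in the same mouse, replicate 1.

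Cldn3, a sealing claudin of tight junctions, was at 12.1 to 61.2 CPM in Control PBS mice (median 23.7) and at 32.4 to 60.6 CPM in Wheel PBS mice (median 37.5). In Control Clodronate mice it was at 61.4, 22.9, 10.95, 63.0 and 39.2 CPM, and in Wheel Clodronate mice at 46.6, 12.3, 24.2, 39.2 and 34.9 CPM. Its log2 change with the wheel was the largest of the 10 with PBS liposomes, 0.64 (SE 0.39, interval -0.15 to 1.44, adjusted p = 0.987 by limma). That change was not past the threshold, and the groups overlapped.

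Epcam, an adhesion molecule of simple epithelia and of progenitor cells, was the steadiest member. It ran from 34.4 to 111 CPM over the 22 mice, a 3.23-fold range, with group medians of 58.6, 62.1, 67.1 and 51.1 CPM in the order Control PBS, Wheel PBS, Control Clodronate, Wheel Clodronate. Cldn7, a claudin of the basolateral membrane, was near the floor, with a highest value of 10.5 CPM and 1 mouse at the floor in each group (Control PBS 3, Wheel PBS 3, Control Clodronate 3 and Wheel Clodronate 2).

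Of the regulators, Elf5, a transcription factor of the alveolar luminal lineage, was low in every group, at 2.35 to 16.4 CPM. Its highest values were 14.9 and 16.4 CPM in Control Clodronate 4 and 5. Esrp1, the splicing factor, was at 7.74 to 58.3 CPM in Control PBS mice (median 20.6) and at 9.69 to 38.1 CPM in Wheel PBS mice (median 12.97). Control Clodronate mice had 15.8, 73.1, 72.6, 16.1 and 37.6 CPM and Wheel Clodronate mice 42.0, 57.8, 20.1, 9.66 and 6.55 CPM. Within each group the high and low mice were several-fold apart, 11.2-fold over all 22.

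The first comparison asks whether voluntary running changed these genes with phagocytes in place. In Wheel PBS against Control PBS mice, limma called 0 of the 10 members at an adjusted p of 0.05, and the share over all 15138 genes tested was 0%. At an unadjusted p under 0.05 the count was also 0 of 10, against 744 of all genes. Log2 changes ran from -0.30 (Esrp1, interval -1.40 to 0.80) to 0.64 (Cldn3), 7 above 0 and 3 below, with a median of 0.20 against -0.08 over all genes. That of Esrp1 was -0.02 without Control PBS 4 and -0.57 without Control PBS 1. The 4 keratins had 0.43 (Krt7), 0.35 (Krt8), 0.16 (Krt18) and 0.56 (Krt19), the claudins 0.64 and 0.24 (Cldn7), and Epcam, Cdh1 and Elf5 -0.05, -0.11 and 0.11. All 10 intervals included 0, and that of Epcam, the narrowest, ran from -0.54 to 0.44. Epcam lay above 0 (0.05) with upper-quartile scaling. The epidermal level ran from 32.3 to 5938 CPM in Control PBS mice (median 1580) and from 36.8 to 7067 CPM in Wheel PBS mice (median 117). The muscle genes summed to medians of 496 and 159 CPM in these groups. All 12 epidermal and all 10 muscle genes had changes below 0, with medians of -0.88 and -1.84 and 0 called. With the epidermal level as a covariate, Cdh1 went above 0 (0.03). The part of the muscle content in the member changes was not tested.

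With clodronate liposomes, Wheel against Control mice gave 0 of 10 members called, and 0.00661% of all genes (1 of 15138). Changes ran from -0.76 (Esrp1, SE 0.58) to 0.23 (Krt7, SE 0.41), 4 above 0 and 6 below. Their median was -0.21, against 0.005 over all genes. At an unadjusted p under 0.05 there were 0 of 10 members and 1579 of all genes. In Wheel Clodronate mice the 12 lymphocyte genes summed to 12.0 to 733 CPM (median 463) and in Control Clodronate mice to 12.8 to 19.1 CPM. Without the 5 lymphocyte-rich mice, which leaves 2 Wheel Clodronate mice, 0 of 10 were still called, and 5 changes went to the other side of 0, with Esrp1 at 0.48 and Krt8 at -0.47.

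Clodronate against PBS liposomes, averaged over activity, gave 0 of 10 members called, against 0.205% of all genes (31 of 15138), and 0 of 10 against 1579 at an unadjusted p under 0.05. The changes ran from -0.23 (Krt8, SE 0.27) to 0.45 (Esrp1, SE 0.39), 4 above 0 and 6 below. Their median was -0.05, against -0.04 over all genes. The interval of Esrp1 ran from -0.37 to 1.26 and that of Cdh1 from -0.14 to 0.83. Krt18 and Cldn3 crossed 0 with upper-quartile scaling (0.01 each). For Epcam, the member with the narrowest interval, the change was 0.08 (-0.28 to 0.44). The macrophage genes in the same tissue, which stand for the cells the drug targets, had a median change of -0.25 with 0 of 10 called. The 12 epidermal genes had a median change of 1.13, 9 above 0 and 3 below, and the 10 muscle genes 1.45, all above 0. Of both lists 0 were called. With the epidermal level as a covariate, Krt7, Krt18 and Cldn3 crossed 0 (0.03, 0.10 and 0.12). The part of the muscle content in the member changes was not tested.

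The interaction asks whether the effect of the wheel differed between liposomes. It was called for 0 of 10 members and 0% of all genes, with 0 of 10 and 1147 of all genes at an unadjusted p under 0.05. Values ran from -0.84 (Cldn3, SE 0.57) to 0.06 (Krt18, SE 0.58), 9 of 10 below 0. Over all genes 59.2% lay above 0, with a median of 0.09. Below 0 were also 9 of 9 hormone-sensing luminal genes, 8 of 10 luminal progenitor genes and 7 of 16 further junction genes. The intervals reached below -1 for every member but Epcam, and above 1 for Krt18 and Esrp1.

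**Figure D2:**
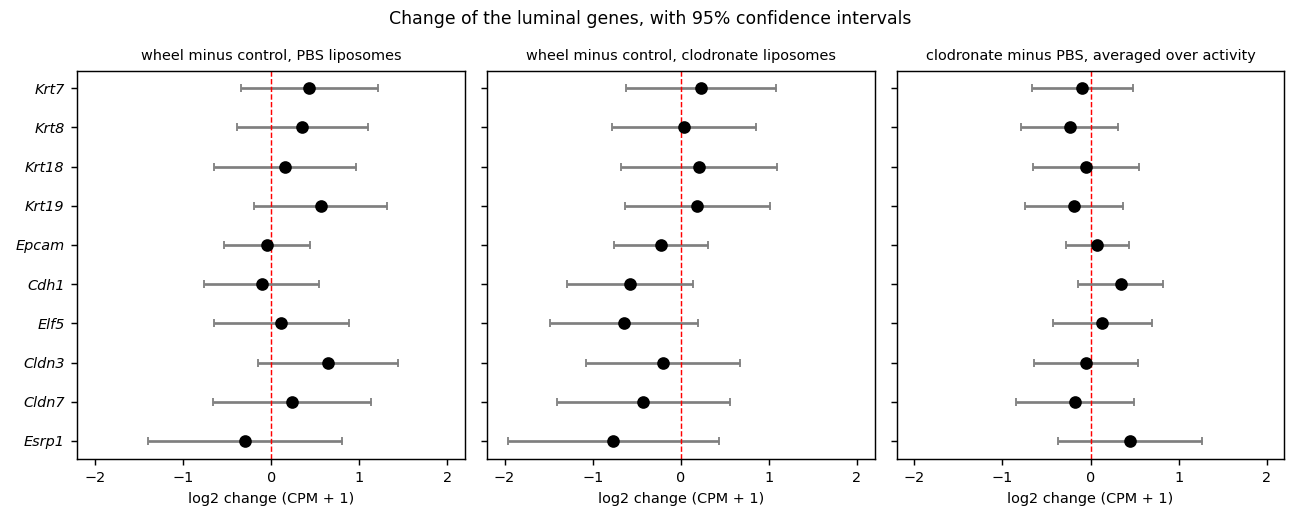
Log2 change of each luminal gene (x axis, on the log2(CPM + 1) scale, y axis the gene) in 3 comparisons, with points for the estimate and bars for the 95% confidence interval from limma. Every interval crosses 0, and the widest belongs to Esrp1 (-1.97 to 0.44 for the wheel with clodronate liposomes).

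For every member but Elf5, the SD between mice was larger than the size of its change with the wheel, under either liposome, and with clodronate. Elf5 had an SD of 0.64 and a change of -0.65 with the wheel and clodronate liposomes. An SD of single mice and a difference of group means are unlike measures. The SD between mice within groups, on the log2(CPM + 1) scale, was 0.68 to 0.75 for the 4 keratins, 0.73 for Cldn3, 0.79 for Cldn7, 0.64 for Elf5, 0.60 for Cdh1, 1.02 for Esrp1 and 0.44 for Epcam, against a median of 0.46 over all genes tested. More precisely, 94.9% of genes had a smaller SD than Esrp1 and 45.7% a smaller SD than Epcam. The mean of the members per mouse ran from 4.30 (Control PBS 3) to 5.69 (Control PBS 5), both in the same group.

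Members kept their proportions to different degrees. The CPM ratio of Krt7 to Krt18 stayed between 0.323 and 0.577 in the 22 mice, a 1.78-fold range, and that of Krt19 to Krt18 between 1.01 and 2.11, a 2.08-fold range, while Krt18 alone varied 6.12-fold. That of Cldn3 to Krt18 had a 3.02-fold range, that of the partners Krt18 and Krt8 a 4.13-fold range (2.52 to 10.4) and that of Esrp1 to Cdh1 a 4.21-fold range. These ratios are used only for their change between mice, not to rank the genes. The ratio of Esrp1 to Krt8 ran from 0.197 (Wheel Clodronate 5) to 8.20 (Control Clodronate 3), a 41.6-fold range. The log2 difference of a gene from Krt8 had an SD within groups of 0.42 for Krt19, 0.47 for Krt18, 0.54 for Krt7 and 0.54 for Cldn3, all smaller than those genes' own SDs. Cldn7 had 0.62, also smaller than its own. For Epcam (0.72), Elf5 (0.79), Cdh1 (1.16) and Esrp1 (1.58) it was larger than their own SDs.

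**Figure D3:**
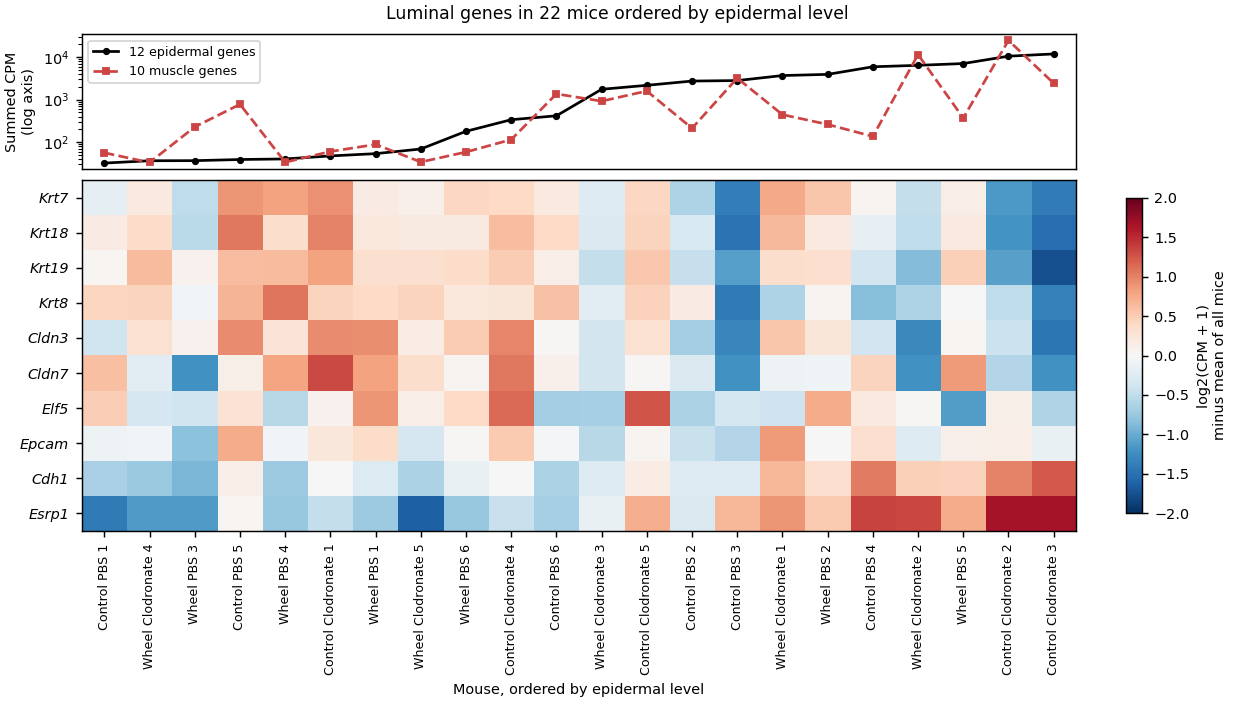
Upper panel, summed CPM of 12 epidermal and 10 muscle genes (y axis, log) per mouse, and lower panel, log2(CPM + 1) of each luminal gene minus its mean over all mice (color, red above and blue below), with the 22 mice in order of epidermal level (x axis). Cdh1 and Esrp1 turn red toward the right, where Krt7, Krt18, Krt19, Krt8 and Cldn3 turn blue in Control PBS 3 and Control Clodronate 2 and 3.

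The members were set against the epidermal level of each mouse, with a slope fitted by limma for every gene beside the 4 group means. This fit was added after the values were seen. Esrp1 rose by 0.26 on the log2 scale for each doubling of the epidermal level (SE 0.033, adjusted p = 2.08e-06 over all genes) and Cdh1 by 0.14 (SE 0.025, adjusted p = 0.000457). These are 2 of 10 members rising, where 5.36% of 15126 genes rose. In the 5 mice with the highest epidermal level Esrp1 was at 72.6, 73.1, 38.1, 57.8 and 58.3 CPM, and in the 5 with the lowest at 7.74, 9.66, 9.69, 23.1 and 12.8 CPM. The median slope over all genes was -0.01.

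Krt8 fell by 0.14 per doubling (SE 0.032, adjusted p = 0.00415), Krt19 by 0.13 (SE 0.034, adjusted p = 0.0209) and Cldn3 by 0.13 (SE 0.037, adjusted p = 0.0280) in limma over all genes, so 3 of 10 members fell where 0.787% of all genes fell. Krt18 had a slope of -0.12 (adjusted p = 0.0830), Cldn7 -0.10 (0.274), Krt7 -0.10 (0.200), Elf5 -0.05 (0.584) and Epcam -0.01 (0.908). The muscle level moved with the epidermal level, 8 of the 10 muscle genes rising with it. With the muscle level as a further term, 0 members passed the threshold for a fall. The slope of Krt8 was then -0.13 (adjusted p = 0.152), that of Krt19 -0.07 (0.639) and that of Cldn3 -0.09 (0.546), while Cdh1 (0.0108) and Esrp1 (0.00211) still rose. Over fits that each left out 1 mouse, the count that fell was 1 to 4. It was 1 without Control Clodronate 1 or without Wheel Clodronate 2, 2 without Control PBS 5 or Control Clodronate 3, and 4 without Wheel PBS 3 or Wheel Clodronate 1, when Krt18 was added (adjusted p of 0.0331 and 0.0396). The count that rose stayed at 2. Without the 5 lymphocyte-rich mice, Krt8 was the 1 member called as falling (-0.17, adjusted p = 0.0121). Every other slope below 0 was also further below 0 than with all mice, and did not pass the threshold. Slopes, with the adjusted p of limma, were -0.15 for Krt19 (0.0904), -0.16 for Cldn3 (0.0849), -0.17 for Krt18 (0.0684) and -0.14 for Krt7 (0.133). Those of Cldn7, Elf5 and Epcam were -0.14 (0.167), -0.07 (0.615) and -0.04 (0.578).

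**Figure D4:**
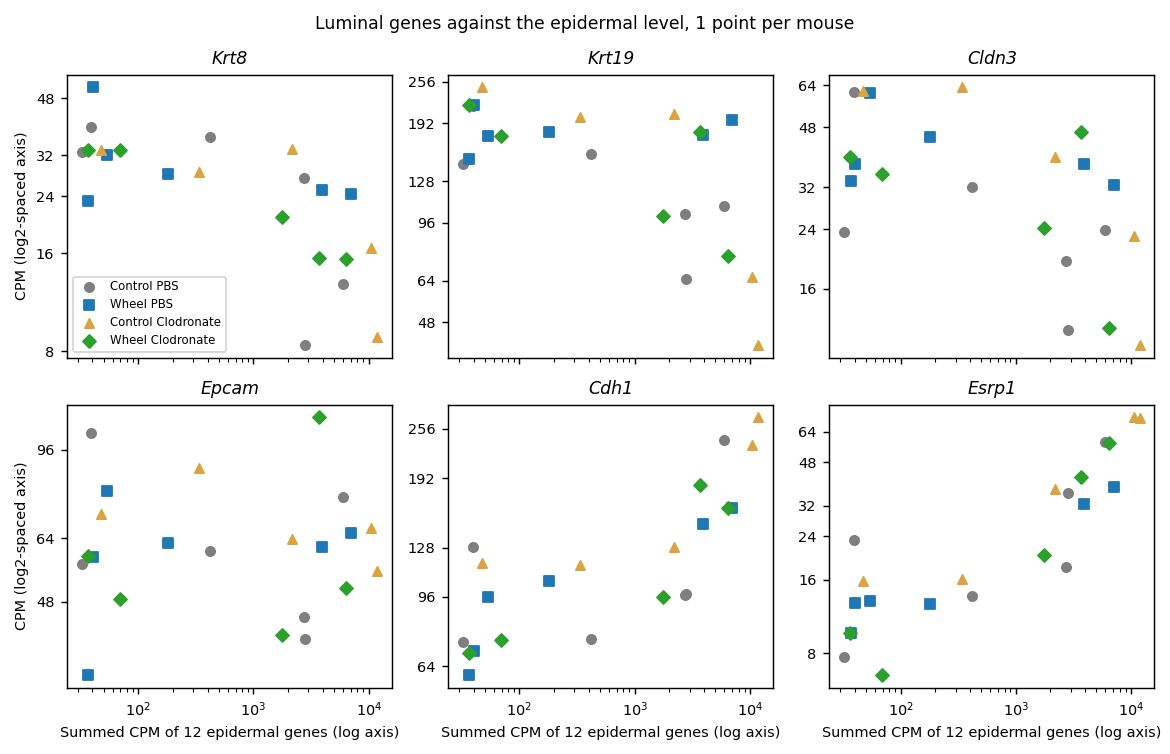
CPM of 6 luminal genes (y axis, log2-spaced) against the summed CPM of 12 epidermal genes (x axis, log), 1 point per mouse, with shape and color for the group. Esrp1 runs from 7.74 CPM at the lowest epidermal sum (Control PBS 1) to 72.6 CPM at the highest (Control Clodronate 3), and Krt8 is at 8.86 CPM in the latter mouse.

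Other epithelial genes, taken from lists set beside the members, gave 0 calls in all 4 comparisons. Among 16 further junction, polarity and surface genes, F11r, a tight junction adhesion molecule, had a log2 change of -0.46 with the wheel and PBS liposomes (SE 0.19, adjusted p = 0.987). With the epidermal level, 4 of the 16 rose, among them Rab25 (0.28), Cgn (0.21) and Ocln (0.11), and 0 fell. Of 15 epithelial regulators and proteases, 3 rose, Ovol1 (0.40), Grhl1 (0.29) and Esrp2 (0.24), the last the close relative of Esrp1. Gata3, a luminal transcription factor, and Trps1 had the highest mean CPM of that list and slopes of 0.08 (adjusted p = 0.0538) and -0.07 (adjusted p = 0.173).

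Of 14 luminal progenitor and alveolar genes 10 were tested, and 5 fell with the epidermal level while 0 rose. They were Wfdc18 (-0.16), Csn3 (-0.16, kappa-casein), Kit (-0.13), Mfge8 (-0.11, the milk fat globule protein) and Cd14 (-0.11). The slopes of these genes and of the other lists come from the fit without the muscle level. No fit with the muscle level, or with 1 mouse left out, is given for them. The milk protein genes Csn1s1, Csn2 and Wap were at the floor in all 22 mice. Glycam1, which lymph node vessels also make, was at 1.00 to 985 CPM, with a change of 4.97 for the wheel with clodronate liposomes (SE 1.73, adjusted p = 0.279), in the same group as the lymphocyte-rich mice. The part of the lymphocyte-rich mice in this value was not tested. Of 9 hormone-sensing luminal genes tested, Ly6d rose with the epidermal level (0.14, adjusted p = 0.00566), and Prlr, the prolactin receptor, had a slope of -0.10 (adjusted p = 0.187).

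Genes of the basal layer were called in both directions. Of 12 basal genes, 6 rose with the epidermal level, among them the basal keratins Krt5 (0.58) and Krt14 (0.55), Col17a1 (0.52), Trp63 (0.34) and Cdh3 (0.14), all known to be used by basal keratinocytes too. The 1 that fell was Myh11, smooth muscle myosin (-0.10, adjusted p = 0.0414 by limma without the muscle level). The other contractile genes Acta2, Cnn1, Mylk and Oxtr had slopes from -0.14 to -0.07 and were not called. Adipocyte, macrophage, lymphocyte, fibroblast, endothelial and dividing-cell lists had 0 genes called in either direction.

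The genes outside the members whose level followed the mean of the members most closely over the 22 mice, among 10112 with a mean of at least 5 CPM, were Slc12a2, Prlr, Tceal9, Mlph, Cmtm8, Tfap2b, Zfp664, Tmprss2, Wfdc2, Ptn, Plk2 and Prom1. Likeness was Pearson's r of deviations from the group means, a description with no test. It was 0.95 for Slc12a2, a chloride cotransporter of secretory epithelia (Spearman's rho 0.87), 0.94 for Prlr (rho 0.85), 0.93 for Tceal9 (rho 0.91) and 0.86 for Prom1, the twelfth. Without the 2 mice farthest from the median of the member mean, r was 0.92 for Slc12a2 and 0.91 for Prlr, and the lowest of the 12 was 0.77 (Wfdc2). The values compared come from the same libraries and the same pieces of tissue.

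The same list was drawn for Krt18 and for Esrp1 (8 genes each) after the values were seen. Krt18 and Esrp1 had an r of -0.46 with each other, so lists with such high r could not share a gene. Closest to Krt18 were Krt7 (r = 0.97), Prlr (0.97), Krt19 (0.95), Wfdc2 (0.95) and Mlph (0.94). Closest to Esrp1 were Acsbg1 (0.95), Foxq1 (0.95), Evpl (0.95, envoplakin of the cornified envelope), Grhl1 (0.94), Rapgefl1 (0.94), Cyp2b19 (0.94), Gdpd2 (0.94) and Pkp1 (0.93, plakophilin of desmosomes). Prlr ran from 120 to 721 CPM over the mice.

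Near-identical transcript ends could split reads between genes, so the last 400 bases of each member's protein-coding GENCODE M21 transcripts were matched to all transcripts. None of the 10 had a match on the same strand at 97% identity or more over at least 100 bases. The closest for Krt18 was the pseudogene Gm5200 at 92.4% over 328 bases, and the ends of Krt7 hold a repeat found in many transcripts at 90% to 93.8% identity.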

How the data were processed

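Mammary tissue RNA of 22 mice was sequenced with QuantSeq 3′ FWD, which reads transcript 3′ ends. The submitters' processing notes name STAR 2.5.3a and GRCm38. The authors deposited a signal per gene scaled to library size (CPM), with values below 1 raised to 1. 4 rows per mouse that name no gene were left out. Each mouse was 1 replicate, and groups followed the labels.

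The 15138 genes with a value over the floor in 5 mice or more were tested on log2(CPM + 1) with limma 3.58.1 (R 4.3.3), as 4 group means with a variance trend and Benjamini-Hochberg adjustment over all genes tested. Intervals are 95%. Fold changes on this scale understate those of low genes. Exact or, for the pooled comparison, sampled permutation tests of the mice were run for single members. The fit on the epidermal level and those without the lymphocyte-rich mice or with a muscle term were added after the data were seen. The members and gene lists were chosen with earlier results of these data known. From other lists the text names genes called in a comparison, otherwise the 2 with the highest mean CPM, and the 12 genes most like the member mean; genes called on the epidermal level were named after their values were seen. The values of 1 gene that this rule names are not reported here. Alternatives covered the pseudocount, low-value filters, scaling, the variance trend, the groups fitted, a replicate block and leaving out each mouse. Transcript ends were compared with blastn 2.17.0, and promoters came from RefSeq. The procedure was tested on simulated data.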

Additional observations from a re-analysis of the deposited data

Results flagged for a closer look

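Wheel PBS 3 stood apart from the other 5 mice of its group by Dixon's ratio of the gap to the whole range in 3 measures. Its Krt18 level was 6.16 on the log2(CPM + 1) scale (70.6 CPM), against 6.88 in the nearest mouse (ratio 0.816). Its Epcam level was 5.15 (34.4 CPM), against 5.90 (ratio 0.639). The mean of the 10 luminal genes was 4.60, against 5.27 (ratio 0.783). The lymphocyte genes summed to 309 CPM in this mouse and to 12.4 to 16.5 CPM in the rest of the group, and the part of this in the 3 values was not tested. Of 52 tests over groups and measures 3 passed, and chance gives about 1 in 20. The tests are not independent, since the mean of the 10 genes contains Krt18 and Epcam.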

How the results depend on the processing

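No luminal gene was called in any of the 4 comparisons under any alternative that was run across all genes. Of 347 values of single luminal genes under other settings, 330 kept their side of 0 and of the threshold, 16 changed sign and 1, Krt19 under exact permutation, passed 0.05. Of 660 with 1 mouse left out, 35 changed sign. The cause of the changes below was not tested.

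For all genes, the wheel with clodronate liposomes gave 1 call, 3 with no filter, 0 when genes had to average 5 CPM, 0 when fitted on the compared groups alone, 0 with the replicate block, 0 with the epidermal level as a covariate and 12 without the 5 lymphocyte-rich mice. With 1 mouse left out it gave 0 to 236 (236 without Wheel Clodronate 2, 118 without Wheel Clodronate 1, and 0 without Wheel Clodronate 5 or any of Control Clodronate 1 to 4). Clodronate gave 31 calls, 54 when genes had to average 5 CPM, 12 with upper-quartile scaling, 15 with scaling to assigned reads, 20 with no variance trend, 11 with the replicate block and 0 without the lymphocyte-rich mice, and 9 to 146 with 1 mouse left out (146 without Control Clodronate 1, 70 without Control PBS 4, 19 without Wheel Clodronate 2, 15 without Control PBS 3, 14 without Control PBS 1 or Wheel Clodronate 3, 12 without Control Clodronate 2 and 9 without Control Clodronate 3). The interaction gave 0 calls, and 2 with no filter.

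Titles number the mice from 1 to 24 across the groups, with gaps, so groups share no title number. Replicate numbers count the mice within a group. The labels do not say what mice of the same number share. Correlations of same-numbered mice ran from -0.25 to 0.11 with PBS and from -0.12 to 0.52 with clodronate liposomes. With tissue content differing this much between mice, these values cannot exclude a pairing. Falling with the epidermal level were 3 members, 1 with the replicate block, 0 with the muscle term, 1 without the lymphocyte-rich mice, and 1 to 4 with 1 mouse left out.

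With the wheel and PBS liposomes Epcam went to 0.050 with upper-quartile scaling and 0.016 without the lymphocyte-rich mice, and Cdh1 to 0.028 with the epidermal covariate and 0.0028 without those mice. With clodronate liposomes Krt8 went to -0.12 with the covariate and, without those mice, Krt8 to -0.47, Krt19 to -0.062, Epcam to 0.14, Cdh1 to 0.094 and Esrp1 to 0.48. For clodronate, upper-quartile scaling gave Krt18 0.0063 and Cldn3 0.0055, the replicate block Krt18 0.0040, and the covariate Krt7 0.029, Krt18 0.10 and Cldn3 0.12. The slope of Epcam was 0.045 with the replicate block and 0.012 with the muscle term, and that of Cldn7 0.015 with the latter.

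With 1 mouse left out, values that changed side ran, for the wheel with PBS liposomes, from -0.13 to 0.38 (Krt18), -0.16 to 0.10 (Epcam), -0.24 to 0.12 (Cdh1) and -0.065 to 0.34 (Elf5), with clodronate liposomes from -0.077 to 0.50 (Krt7), -0.27 to 0.19 (Krt8), -0.14 to 0.49 (Krt18), -0.20 to 0.44 (Krt19) and -0.58 to 0.091 (Cldn3), for clodronate from -0.23 to 0.061 (Krt7), -0.19 to 0.12 (Krt18), -0.32 to 0.0034 (Krt19), -0.036 to 0.15 (Epcam) and -0.16 to 0.14 (Cldn3), and for the slope of Epcam from -0.024 to 0.0080. Esrp1 kept its side in the same fits, from -0.57 to -0.019 for the wheel with PBS liposomes, -1.13 to -0.39 with clodronate liposomes and 0.26 to 0.63 for clodronate. Changes below 1 CPM could not be seen, which limits Cldn7.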
